A study of Mus musculus with 35 samples.

Results

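Mitochondrial ribosomal proteins are encoded in the nucleus, made in the cytosol and imported into mitochondria, where they join the mitochondrial rRNAs to form the ribosome that translates the few proteins encoded by mitochondrial DNA. The genes described here are the rows of the gene count table whose symbol begins with Mrpl (large subunit) or Mrps (small subunit) and a digit. Symbols with -ps, which mark pseudogenes, were dropped, and genes with a mean below 5 CPM (counts scaled to library size) over all libraries were left out. This left 75 of the 55011 symbols in the table, 47 named Mrpl and 28 named Mrps, out of 84 symbols with such names and 78 without -ps. The 3 genes below the threshold were Mrpl23 at 4.39 CPM, Mrps36 at 4.30 CPM and Mrpl53 at 0.71 CPM, and the 2 just above it were Mrps33 at 6.75 CPM and Mrps21 at 8.51 CPM. All 75 genes also passed the low-count filter used for the tests.

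RNA was sequenced from regulatory T cells (Tregs), CD4+ T cells that restrain immune responses, taken from visceral adipose tissue (VAT) and from spleen. The donors were retired breeder males of the C57BL/6 strain, wild type (WT), older than 35 weeks, housed with light for 12 h and darkness for 12 h, with no treatment in the labels. VAT Tregs were collected at ZT (Zeitgeber time, counted in hours from lights on) 0, 4, 8, 12 and 16 with 3 libraries each and at ZT20 with 2 libraries, and spleen Tregs at the same 6 times with 3 libraries each, so that 17 VAT and 18 spleen libraries were compared. Each library came from 1000 cells sorted as CD4+ CD25+, without a Foxp3 reporter in the labels. Whether the libraries of a group stem from different mice is not given in the labels, and the p-values reflect only how far these libraries spread, which may be technical.

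The libraries held 2069319 to 6260185 counts. Foxp3, the defining transcription factor of Tregs, was present in all 35 libraries, at 590.0 to 842.0 CPM in VAT and 429.0 to 638.0 CPM in spleen. Of the B cell markers, Ighm was at 88.4 to 271.0 CPM in VAT and 1150.0 to 3000.0 CPM in spleen, while Ms4a1 was at 0 in 16 of the 35 libraries. The 4 macrophage markers summed to 6.63 to 15.6 CPM in VAT and 19.1 to 75.2 CPM in spleen, with Adgre1 at 0 in 11 libraries, and the 2 endothelial markers to 21.8 to 52.7 CPM in VAT and 154.0 to 340.0 CPM in spleen, nearly all of it Pecam1, with Cdh5 at 0 in 20 libraries. Adipocyte, stromal and neutrophil marker sums stayed below 10 CPM in every library, with Adipoq at 0 in 20 libraries and S100a8 at 0 in 33, and the part of other cells in the tissue differences given here was not tested. In bulk samples of this kind, fewer cells of a type and less RNA per cell cannot be told apart.

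The mitochondrial ribosome descends from a bacterial one. Many of its proteins still have a bacterial counterpart, others were added during the evolution of mitochondria and largely occupy new places on the ribosome. All of them have to be supplied from the nucleus in amounts that match rRNA made inside mitochondria. In mammals, promoters of such genes often carry binding sites for NRF1 (nuclear respiratory factor 1), for GABP, an ETS-family factor, and for YY1.

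RefSeq promoters of GRCm38.p6, 250 bases before to 50 bases after a RefSeq start, were found for 66 of the 75 genes, 72 promoters in all. These starts can differ from those of the GENCODE M21 annotation, which was used for neighbouring genes. In GENCODE M21, Mrpl33 starts at base 31596935 of chromosome 5 and Mrps24 at base 5715680 of chromosome 11. Both positions lie outside the promoters printed below. Letters were searched on both strands: CGCANGCGC for NRF1, CCGGAAG for ETS factors, AANATGGCG for YY1 and CACGTG for the E-box that clock factors can bind, and none of these motifs contains another, although matches can overlap. The NRF1 letters were in 25% of the 72 promoters, against 6.31% of all 32851 promoters and 12.5% of the 13534 promoters of genes tested here. The ETS letters were in 34.7% of them, against 8.86% of all promoters and 16.8% of those of tested genes. The YY1 letters were in 15.3%, against 2.38% and 4.64%. At least 1 of these 3 motifs was in 59.7%, against 15.5% of all promoters and 29.5% of those of tested genes. The E-box was in 9.72%, close to the 9.63% of the promoters of tested genes. These shares describe letters in a window and no binding.

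Printed here are promoters of genes that the comparisons below turn on: Mrpl52, Mrpl58 and Mrpl30, which were lower in VAT Tregs; Mrpl33 and Mrps24, which were higher; and Mrps12 and Mrps18b, which were called rhythmic. Each is given 5′ to 3′ on the strand of its gene, with matches to the NRF1, ETS or YY1 letters in capitals.
Mrpl52 (GRCm38.p6, chr14:54426659-54426958, plus strand): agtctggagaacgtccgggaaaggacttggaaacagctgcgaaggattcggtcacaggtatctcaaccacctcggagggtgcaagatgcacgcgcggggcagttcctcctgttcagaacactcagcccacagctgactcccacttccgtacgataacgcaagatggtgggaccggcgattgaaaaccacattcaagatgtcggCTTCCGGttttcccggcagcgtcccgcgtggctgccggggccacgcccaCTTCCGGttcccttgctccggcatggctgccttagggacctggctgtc
Mrpl58 (GRCm38.p6, chr11:115403502-115403801, plus strand): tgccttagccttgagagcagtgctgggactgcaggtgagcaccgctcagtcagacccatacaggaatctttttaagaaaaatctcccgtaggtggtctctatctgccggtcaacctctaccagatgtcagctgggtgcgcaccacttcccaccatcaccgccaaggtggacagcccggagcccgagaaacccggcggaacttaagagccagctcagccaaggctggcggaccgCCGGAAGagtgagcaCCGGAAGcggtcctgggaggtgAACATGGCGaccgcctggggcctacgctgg
Mrpl30 (GRCm38.p6, chr1:37890227-37890526, plus strand): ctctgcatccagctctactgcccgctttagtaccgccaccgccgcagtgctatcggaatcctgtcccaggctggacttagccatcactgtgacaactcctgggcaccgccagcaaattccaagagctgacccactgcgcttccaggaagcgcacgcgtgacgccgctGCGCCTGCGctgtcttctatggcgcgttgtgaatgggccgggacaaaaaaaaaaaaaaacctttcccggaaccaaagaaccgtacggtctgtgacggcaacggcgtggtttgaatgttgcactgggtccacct
Mrpl33 (GRCm38.p6, chr5:31613701-31614000, plus strand): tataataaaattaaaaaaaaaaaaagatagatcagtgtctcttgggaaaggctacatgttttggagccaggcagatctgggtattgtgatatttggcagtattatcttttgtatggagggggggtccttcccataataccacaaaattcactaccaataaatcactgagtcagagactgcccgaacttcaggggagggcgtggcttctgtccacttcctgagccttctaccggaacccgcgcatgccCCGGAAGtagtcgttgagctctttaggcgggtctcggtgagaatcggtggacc
Mrps24 (GRCm38.p6, chr11:5707652-5707951, minus strand): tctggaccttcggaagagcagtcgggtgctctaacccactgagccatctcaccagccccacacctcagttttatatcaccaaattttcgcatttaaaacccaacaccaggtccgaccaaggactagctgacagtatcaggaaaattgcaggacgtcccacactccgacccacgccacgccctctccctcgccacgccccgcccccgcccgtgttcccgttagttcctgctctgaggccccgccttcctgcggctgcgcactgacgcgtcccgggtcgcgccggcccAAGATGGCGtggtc
Mrps12 (GRCm38.p6, chr7:28741772-28742071, minus strand): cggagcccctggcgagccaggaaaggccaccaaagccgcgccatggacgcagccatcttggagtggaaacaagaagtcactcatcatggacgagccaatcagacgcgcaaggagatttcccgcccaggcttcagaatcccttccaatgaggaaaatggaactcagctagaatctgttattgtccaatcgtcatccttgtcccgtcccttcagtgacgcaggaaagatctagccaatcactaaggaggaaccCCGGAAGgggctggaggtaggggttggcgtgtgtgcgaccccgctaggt
Mrps18b (GRCm38.p6, chr17:35916391-35916690, minus strand): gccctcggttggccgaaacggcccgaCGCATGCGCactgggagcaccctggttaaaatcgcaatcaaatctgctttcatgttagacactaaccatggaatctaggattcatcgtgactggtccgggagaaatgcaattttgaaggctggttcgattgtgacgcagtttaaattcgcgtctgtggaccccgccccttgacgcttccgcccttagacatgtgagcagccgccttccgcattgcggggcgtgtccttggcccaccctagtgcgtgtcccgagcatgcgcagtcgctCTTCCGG
The capitals in Mrpl52 are 2 ETS matches, and those in Mrpl58 are 2 ETS matches followed by a YY1 match. Mrpl30 has an NRF1 match, Mrpl33 an ETS match, Mrps24 a YY1 match, Mrps12 an ETS match, and Mrps18b an NRF1 match and an ETS match. Genes that were higher and genes that were lower in VAT Tregs thus both carried them.

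Many of these genes share their promoter region with another gene. Of the 75 genes, 33 (44.0%) had a protein-coding gene starting on the opposite strand within 1000 bp, against 1964 of 12275 protein-coding genes tested (16%). Mrpl46 and Mrps11 are such a pair on chromosome 7, and Mrps12 lies 172 bp from Sars2, the mitochondrial seryl-tRNA synthetase. The 75 genes lie on 17 chromosomes, 11 of them on chromosome 11. In the annotation, 41 of the 75 (54.7%) overlap another gene. Among those that do so on the same strand are Mrps24 with Urgcp, Mrps34 with Nme3, Mrpl33 with Gm43809, and Mrps6, which contains Slc5a3. The strand setting of the counting is not given, so reads in such overlaps cannot be assigned with certainty to either gene.

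The level of a gene was compared with that of others only per length, as CPM per kilobase of its median annotated transcript. Over the 75 genes, these levels ran from 8.24 to 145.6 CPM per kilobase, with a median of 34.6. The highest were Mrpl18 at 145.6, Mrps23 at 116 and Mrpl4 at 105.1 CPM per kilobase. The lowest were Mrpl1 at 8.24, Mrps22 at 9.80 and Mrps31 at 10.4 CPM per kilobase. Proteins that, with few exceptions, stand in 1 copy each in the ribosome thus had mRNA levels more than 10-fold apart. The transcript length that is used moves such values: per kilobase of all annotated exons of the gene, Mrpl18 was at 45.6 and Mrps23, then the highest, at 49.5 CPM per kilobase. The lowest was then Mrpl48 at 2.05, while Mrpl1, Mrps22 and Mrps31 were at 6.58, 5.52 and 6.56 CPM per kilobase and no longer the lowest. The summed level of the 75 genes was 2051.6 to 3418.8 CPM in VAT (median 2425.9, n = 17) and 2330.5 to 3475.8 CPM in spleen (median 2667.9, n = 18), so the tissues overlapped.

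VAT and spleen Tregs were compared over the mean of the 6 times, with edgeR's quasi-likelihood test and adjustment over all 15910 genes tested. Of the 75 genes, 8 were called higher and 34 lower in VAT Tregs, and 33 were not called. Over all genes tested, 28.6% were higher and 33.5% were lower, so the share of these genes that was higher (8 of 75) was below that background and the share that was lower (34 of 75) was above it. The excess of lower calls was not there once each library's slope on transcript length, described further on, was a covariate: 24 of 75 were then lower, beside 31.6% of all genes. The median log2 fold change of the 75 genes, VAT minus spleen, was -0.19, beside -0.10 for all genes, and 58 of the 75 were below 0. Most differences were small: apart from Mrpl52, Mrps34 and Mrpl58, all 75 lay within 1 on the log2 scale. The split also depends on the scaling. With library totals in place of TMM (trimmed mean of M values) factors, the median of all genes moved to -0.45 and that of the 75 genes to -0.53, 1 was called higher and 64 lower (beside 18% and 53.4% of all genes), and 13 of the 75 turned their sign.

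**Figure D1:**
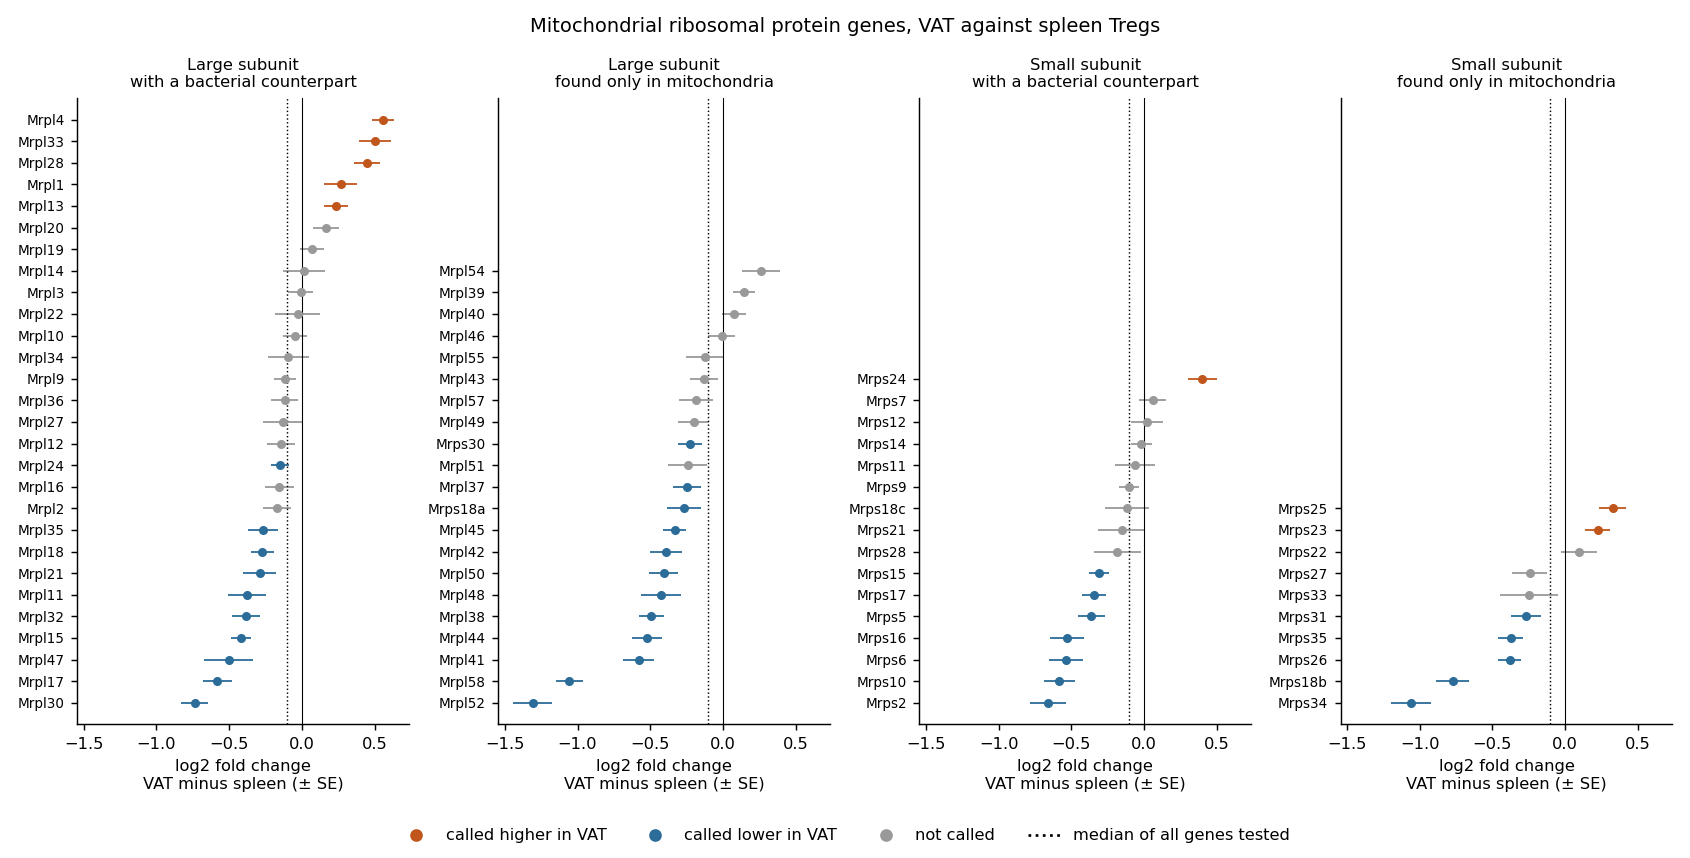
Log2 fold change of each of the 75 genes (horizontal axis, VAT minus spleen, mean over the 6 times), with bars of 1 SE, in 4 panels by subunit and origin. Orange genes were called higher and blue genes lower in VAT, grey genes were not called, and the dotted line marks the median of all genes tested, -0.10. Mrpl52 at -1.31 is the lowest and Mrpl4 at 0.56 the highest.

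Counts by subunit and origin, given next, stand beside 28.6% of all genes tested called higher and 33.5% called lower. None of these groups was tested as a set, and their counts with the length slope as a covariate are not given. Among the proteins of the large subunit that have a bacterial counterpart, 5 of 28 were higher, 10 were lower and 13 were not called, with a median log2 fold change of -0.12. The largest rise was that of Mrpl4, which lines the tunnel through which the new chain leaves the ribosome. Mrpl4 was at 63.5, 90.1 and 145.7 CPM (lowest, median and highest of 17 VAT libraries), against 52.5, 62.0 and 92.1 CPM in the 18 spleen libraries. Its ranges overlapped, but 6 VAT libraries lay above the highest spleen library, and the VAT mean was above the spleen mean at all 6 times. The log2 fold change was 0.56 ± 0.07 (SE; edgeR adjusted p = 3.28e-08), a 1.47-fold higher level, and it stayed positive and called with library totals (0.21).

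Mrpl33 was at 24.1, 39.6 and 46.3 CPM in VAT, against 17, 26.8 and 37.4 CPM in spleen (log2 fold change 0.50 ± 0.11, edgeR adjusted p = 0.000157). Its value may include reads of Gm43809, which overlaps it on the same strand. Mrpl28 was at 37.3, 55.2 and 85.9 CPM in VAT, against 33, 41.1 and 56.4 CPM in spleen (0.45 ± 0.09, edgeR adjusted p = 2.58e-05). Both are counterparts of small bacterial proteins of the large subunit, both were higher in VAT at all 6 times, and both were no longer called with library totals. Mrpl1, part of the stalk where tRNAs leave, and Mrpl13 rose less, by 0.27 ± 0.11 and 0.24 ± 0.08 on the log2 scale (edgeR adjusted p = 0.0366 and 0.0142). With library totals both were slightly below 0, at -0.083 and -0.11. The call of Mrpl1 was also lost when any 1 of 15 of the 35 libraries was left out (VAT ZT0 A, ZT0 B, ZT4 B, ZT4 D, ZT8 C, ZT16 C, ZT20 A, ZT20 C or spleen ZT0 A, ZT4 D, ZT8 D, ZT12 A, ZT12 D, ZT16 B, ZT20 B; edgeR adjusted p 0.0544 to 0.0733), and neither Mrpl1 nor Mrpl13 was called without the ZT20 libraries.

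On the lower side of this group were Mrpl30 and Mrpl17. Mrpl30 was at 21.2, 32.1 and 49.9 CPM in VAT, against 40.1, 54.8 and 77.7 CPM in spleen, and 16 of the 17 VAT libraries lay below the lowest spleen library (log2 fold change -0.74 ± 0.09, edgeR adjusted p = 6e-09). Mrpl17 was at 15, 28.2 and 44 CPM in VAT, against 30.8, 43.3 and 57.4 CPM in spleen (-0.58 ± 0.10, edgeR adjusted p = 3.63e-06). Mrpl12, which forms the stalk that recruits translation factors and has also been described as a partner of the mitochondrial RNA polymerase, was at 34.7 CPM in the median VAT library and 41.4 CPM in the median spleen library, and was not called (-0.15 ± 0.10, edgeR adjusted p = 0.186). It was called lower with library totals (-0.49).

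Among the 21 large-subunit proteins found only in mitochondria, 12 were lower, none was called higher and 9 were not called, with a median log2 fold change of -0.24. Whether the lower calls of this group exceed the 33.5% of all genes once the length slope is a covariate was not tested. The 2 lowest of these were Mrpl52 and Mrpl58. Mrpl52, a structural protein of the large subunit, was at 5.34, 9.34 and 18.7 CPM in VAT, against 18.2, 21.4 and 41.0 CPM in spleen. The highest VAT library lay just above the lowest spleen library, and 16 of 17 VAT libraries lay below all spleen libraries. Its log2 fold change was -1.31 ± 0.13 (edgeR adjusted p = 5.31e-11), 0.404 times the spleen level.

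Mrpl58, also known as ICT1, is both a structural protein and a peptidyl-tRNA hydrolase that can free stalled ribosomes. It was at 14, 24.8 and 36.3 CPM in VAT, against 39.1, 52.2 and 73 CPM in spleen, and here the tissues did not overlap. The log2 fold change was -1.06 ± 0.09 (edgeR adjusted p = 1.81e-12). Mrpl52 and Mrpl58 were called lower at each of the 6 times on its own. For Mrpl58, the means were 22.3 ± 4.49, 24.5 ± 4.35, 22.4 ± 5.1, 25.9 ± 3.86, 21.7 ± 6.89 and 34.7 ± 2.24 CPM in VAT from ZT0 to ZT20 (SD, n = 3, and n = 2 at ZT20), against 41.7 ± 3.24, 49.4 ± 11.1, 48.2 ± 4.14, 51.3 ± 5.65, 59.9 ± 3.93 and 63.3 ± 8.95 CPM in spleen (SD, n = 3 each).

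Other proteins of this group have roles of their own. Mrpl41, near the exit of the tunnel, was at 8.80, 14.8 and 25.4 CPM in VAT, against 16.3, 23.3 and 32.4 CPM in spleen (-0.58 ± 0.11, edgeR adjusted p = 1.7e-05). Mrpl44, which has a fold related to RNase III and is mutated in an infantile heart disease in humans, was at 18.8, 27.1 and 42.8 CPM in VAT, against 25.6, 35.5 and 55.2 CPM in spleen (-0.52 ± 0.11, edgeR adjusted p = 5.43e-05). Mrps30 and Mrps18a keep small-subunit names but sit in the large subunit. They fell by smaller amounts, -0.23 ± 0.08 and -0.27 ± 0.12 (edgeR adjusted p = 0.0170 and 0.0418). Mrps30 was not called without a filter on low counts (-0.20, edgeR adjusted p = 0.124) or with the length slope (-0.22, 0.0557). The call of Mrps18a was lost when any 1 of 14 libraries was left out (VAT ZT0 B, ZT4 C, ZT8 B, ZT8 C, ZT12 D, ZT16 B, ZT20 C or spleen ZT4 B, ZT8 B, ZT8 D, ZT12 B, ZT16 B, ZT20 B, ZT20 C, edgeR adjusted p 0.0505 to 0.0935). It was also lost in 5 of 9 other settings. Among these were no filter (edgeR adjusted p = 0.0972), no ZT20 libraries (0.0626) and the length slope (0.678), where the fold change of Mrps18a was -0.066.

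In the small subunit, 1 of the 16 proteins with a bacterial counterpart was higher, 7 were lower and 8 were not called (median -0.17). The higher one was Mrps24, at 33, 48.1 and 65.9 CPM in VAT, against 19.6, 38.2 and 48.1 CPM in spleen (0.40 ± 0.10, edgeR adjusted p = 0.000781). Its value may include reads of Urgcp, which overlaps it on the same strand, and it was not called with library totals (0.051). The lowest were Mrps2 and Mrps10, counterparts of the bacterial proteins of the same numbers. Mrps2 was at 10.1, 18.3 and 38.5 CPM in VAT, against 18.2, 31.3 and 47.4 CPM in spleen (-0.66 ± 0.12, edgeR adjusted p = 1.44e-05). Mrps10 was at 15.3, 22.6 and 37 CPM in VAT, against 21.2, 34.4 and 55.6 CPM in spleen (-0.58 ± 0.11, edgeR adjusted p = 1.82e-05). The ranges of both overlapped between the tissues, while the VAT mean was the lower at all 6 times.

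Of the 10 small-subunit proteins found only in mitochondria, 2 were higher, 5 were lower and 3 were not called (median -0.26). Mrps34, mutated in a childhood brain disease in humans, was at 5.40, 9.84 and 12.9 CPM in VAT, against 12.1, 19.4 and 27.4 CPM in spleen. Of the 17 VAT libraries, 14 lay below the lowest spleen library (-1.06 ± 0.14, edgeR adjusted p = 1.92e-08). The value of Mrps34 may include reads of Nme3, which overlaps it on the same strand. Mrps18b, 1 of 3 genes with the Mrps18 name, was at 8.04, 14.4 and 26.7 CPM in VAT, against 15.1, 25.3 and 36.6 CPM in spleen (-0.77 ± 0.12, edgeR adjusted p = 3.53e-07). The other 2 differed less: Mrps18a fell by 0.27 and Mrps18c was not called (-0.12, edgeR adjusted p = 0.517).

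Mrps25 and Mrps23 were the 2 genes of this group that rose. Mrps25 was at 20.7, 32.2 and 43.5 CPM in VAT, against 16.6, 27.1 and 33.6 CPM in spleen (0.33 ± 0.09, edgeR adjusted p = 0.00297). Mrps23 was at 52.6, 81.4 and 127.4 CPM in VAT, against 53.3, 73.3 and 85.7 CPM in spleen (0.22 ± 0.09, edgeR adjusted p = 0.0235). With library totals both were below 0, at -0.023 and -0.13. The call of Mrps23 was lost without spleen ZT4 C, VAT ZT8 D, VAT ZT12 A or VAT ZT20 A (edgeR adjusted p 0.0515 to 0.0932), and without all ZT20 libraries.

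Genes that share a promoter region did not all differ in the same direction. Ppp1r10, a regulatory subunit of protein phosphatase 1, starts 45 bp from Mrps18b on the opposite strand and was higher in VAT (1.75 ± 0.07, edgeR adjusted p = 8.54e-23), while Mrps18b was lower (-0.77). Eme2, the partner of Mrps34 at 29 bp, was lower like it (-1.61 ± 0.17, edgeR adjusted p = 2.69e-10), and so was Mitd1, the partner of Mrpl30 at 66 bp (-0.92 ± 0.09, edgeR adjusted p = 3.28e-11). Twnk, the mitochondrial DNA helicase, was lower (-1.50 ± 0.19, edgeR adjusted p = 1.6e-08) beside Mrpl43, which was not called (-0.13, edgeR adjusted p = 0.230). These partners were named after their values were seen.

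At single times, fewer genes passed the test. At ZT0, 4 of the 75 were higher and 4 lower, and 30.3% of all genes were called in either direction. At ZT4, 2 were higher and 6 lower (28.4% of all genes called). At ZT8, 2 were higher and 12 lower (28.4% of all genes). At ZT12, none was higher and 12 were lower (28%), and at ZT16 none was higher and 15 were lower (30.7%). At ZT20, 4 were higher and 4 lower (24%). At each time the share of the 75 called in either direction was below that of all genes. The 2 directions differed. Lower calls over all 15910 genes numbered 2132 at ZT8, 2003 at ZT12 and 2185 at ZT16. At these times the share of the 75 that was lower was above that of all genes. At ZT0, ZT4 and ZT20 it was below, and the share that was higher was below at all 6 times. The genes called higher at ZT20 were Mrpl4, Mrpl28, Mrpl39 and Mrpl13, and those called lower were Mrpl52, Mrps34, Mrpl58 and Mrpl30.

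The median log2 fold change of the 75 genes, VAT minus spleen, was -0.17 at ZT0, -0.098 at ZT4, -0.25 at ZT8, -0.34 at ZT12, -0.32 at ZT16 and 0.0004 at ZT20, while that of all genes stayed between -0.096 and -0.040. With each library's slope on transcript length as a covariate, the medians of the 75 were -0.052, 0.021, -0.17, -0.19, -0.11 and -0.032. Those of all genes were then between -0.11 and -0.061. At ZT8, ZT12 and ZT16, lower calls were then 8, 7 and 6 of the 75, beside 2173, 1982 and 2014 of all genes. Higher calls were 3, 1 and 4, beside 2445, 2372 and 2538. Whether the tissue difference changed with time was tested for each gene, without the slope, as an interaction of tissue with the 6 times. None of the 75 passed after adjustment, beside 0.00629% of all genes, and 4 had an unadjusted edgeR p under 0.05, beside 9.23% of all genes. For Mrpl52 the direction of the difference was the same at all 6 times, while its level moved within each tissue. Its VAT means were 8.05 ± 2.86, 11.2 ± 2.71, 7.93 ± 0.359, 8.53 ± 1.15, 11.2 ± 5.07 and 14.4 ± 6.05 CPM from ZT0 to ZT20 (SD, n = 3, and n = 2 at ZT20), against 19.8 ± 1.4, 22.1 ± 1.37, 19.4 ± 0.693, 25.2 ± 6.6, 29.4 ± 7.4 and 35.3 ± 5.18 CPM in spleen (SD, n = 3 each).

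**Figure D2:**
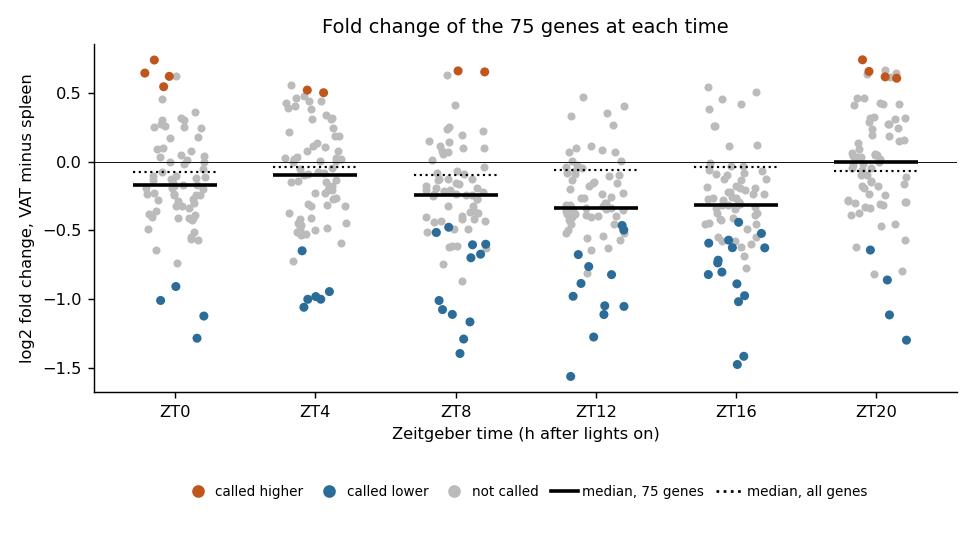
Log2 fold change, VAT minus spleen (vertical axis), of each of the 75 genes (points) at each Zeitgeber time (horizontal axis). Orange and blue points were called higher and lower in VAT, solid lines mark the median of the 75 genes and dotted lines that of all genes tested. The median of the 75 genes lies at -0.34 at ZT12 and at 0.0004 at ZT20. With the length slope as a covariate, not shown here, these medians were -0.19 and -0.032.

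Within each tissue, a rhythm of 24 h was tested as a cosine and a sine over the 6 times, in 1 model for both tissues. In VAT Tregs, 3 of the 75 genes were called rhythmic, beside 1.84% of all genes, and 23 had an unadjusted p under 0.05, beside 17.4% of all genes. All 3 are small-subunit genes with a fitted peak late in the dark phase. Mrps12, the counterpart of the bacterial S12 protein at the decoding site, was at 30.4, 26.8 and 23.4 CPM at ZT0, 22.5, 22.7 and 22.4 CPM at ZT4, 13.1, 15.1 and 18.3 CPM at ZT8, 15.7, 12.6 and 15.4 CPM at ZT12, 25.9, 22.5 and 21.4 CPM at ZT16, and 35.7 and 32.5 CPM at ZT20. Every VAT library at ZT8 and ZT12 was below every one at the other 4 times. The amplitude, peak to trough on the log2 scale, was 1.15 ± 0.21 (SE) with a peak at ZT21.6 (edgeR adjusted p = 0.0103).

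Mrps15, a counterpart of bacterial S15, was at 56.9, 46.6 and 43.1 CPM at ZT0, 60.2, 44.9 and 40.1 CPM at ZT4, 32.8, 41.5 and 44.9 CPM at ZT8, 45.9, 38.3 and 35.6 CPM at ZT12, 49.4, 41.1 and 53.5 CPM at ZT16, and 73.7 and 68.8 CPM at ZT20 in VAT. Mrps18b was at 14.1, 21.6 and 17.7 CPM at ZT0, 15.4, 9.88 and 12.9 CPM at ZT4, 12, 15.6 and 9.85 CPM at ZT8, 12.2, 8.04 and 11.5 CPM at ZT12, 14.4, 16.9 and 18.4 CPM at ZT16, and 20.6 and 26.7 CPM at ZT20. For Mrps15 both ZT20 libraries lay above all others, and for Mrps18b 1 of them did. The amplitudes were 0.63 ± 0.15 with a peak at ZT21.1 for Mrps15 (edgeR adjusted p = 0.0461) and 0.97 ± 0.24 with a peak at ZT20.8 for Mrps18b (edgeR adjusted p = 0.0478). Next in order were Mrpl13 and Mrpl45, an inner-membrane anchor of the ribosome, with amplitudes of 0.73 ± 0.19 and 0.68 ± 0.19 (edgeR adjusted p = 0.0607 and 0.0868).

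The call of Mrps12 held when each of the 35 libraries was left out in turn (edgeR adjusted p 0.00342 to 0.0494), but not without all ZT20 libraries (0.169). Mrps15 lost its call without any 1 of 10 VAT libraries (ZT0 A, ZT4 C, ZT8 B, ZT8 C, ZT12 B, ZT12 D, ZT16 A, ZT16 C, ZT20 A or ZT20 C; edgeR adjusted p 0.0521 to 0.210), and Mrps18b without any 1 of 18 libraries, 11 of VAT and 7 of spleen (VAT ZT0 B, ZT4 C, ZT4 D, ZT8 B, ZT8 D, ZT12 A, ZT12 B, ZT12 D, ZT16 C, ZT20 A, ZT20 C or spleen ZT0 B, ZT4 C, ZT4 D, ZT8 B, ZT8 C, ZT8 D, ZT20 A; 0.05 to 0.219).

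In spleen Tregs, 1 of the 75 genes was called rhythmic, beside 1.99% of all genes, and 18 had an unadjusted p under 0.05, beside 15.7% of all genes. The gene was Mrps14, a counterpart of bacterial S14. Mrps14 was at 58.8, 52.4 and 49.5 CPM at ZT0, 48.7, 37 and 41.5 CPM at ZT4, 51.6, 52.8 and 49.2 CPM at ZT8, 49.6, 72.2 and 48.4 CPM at ZT12, 64.4, 77 and 68.6 CPM at ZT16, and 74.7, 65 and 65.2 CPM at ZT20. The libraries of ZT16 and ZT20 were above all others but 1 of ZT12. Its amplitude was 0.68 ± 0.15 with a peak at ZT17.1 (edgeR adjusted p = 0.0234), and the call was lost without spleen ZT4 C (0.0755) or spleen ZT16 B (0.0798).

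The next 4 genes in spleen by p were Mrps21 with an amplitude of 1.17 ± 0.30, Mrpl38 with 0.66 ± 0.17, Mrps6 with 0.77 ± 0.21 and Mrpl36 with 0.64 ± 0.19, none of them called (edgeR adjusted p = 0.0606, 0.0706, 0.0972 and 0.130). Mrps21 was among the genes of lowest level, at 4.65, 7.22 and 15.5 CPM in spleen. The medians of the amplitude over the 75 genes were 0.44 in VAT and 0.37 in spleen, below those of all genes (0.52 in VAT and 0.48 in spleen). All genes here include many of lower level than these 75. Among the 10310 genes with a mean of at least 5 CPM, the order was the other way. There the medians of the 75 were 0.46 in VAT and 0.38 in spleen, beside 0.40 and 0.36 for all such genes.

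None of the 75 genes was called for a difference in rhythm between VAT and spleen (0.00629% of all genes, 1 gene, was), and 6 had an unadjusted p under 0.05, beside 9.16% of all genes. DESeq2 also called none of the 75. The smallest unadjusted edgeR p-values were those of Mrps12 (0.00393), Mrps18b (0.00503), Mrps14 (0.0185), Mrps30 (0.0212) and Mrpl17 (0.0324). For Mrps18b the amplitude was 0.97 ± 0.24 in VAT and 0.13 ± 0.21 in spleen. In Mrps12 it was 1.15 ± 0.21 with a peak at ZT21.6 in VAT and 0.66 ± 0.20 with a peak at ZT17.4 in spleen. A rhythm called in 1 tissue was therefore not shown to differ from that in the other for any of these genes.

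**Figure D3:**
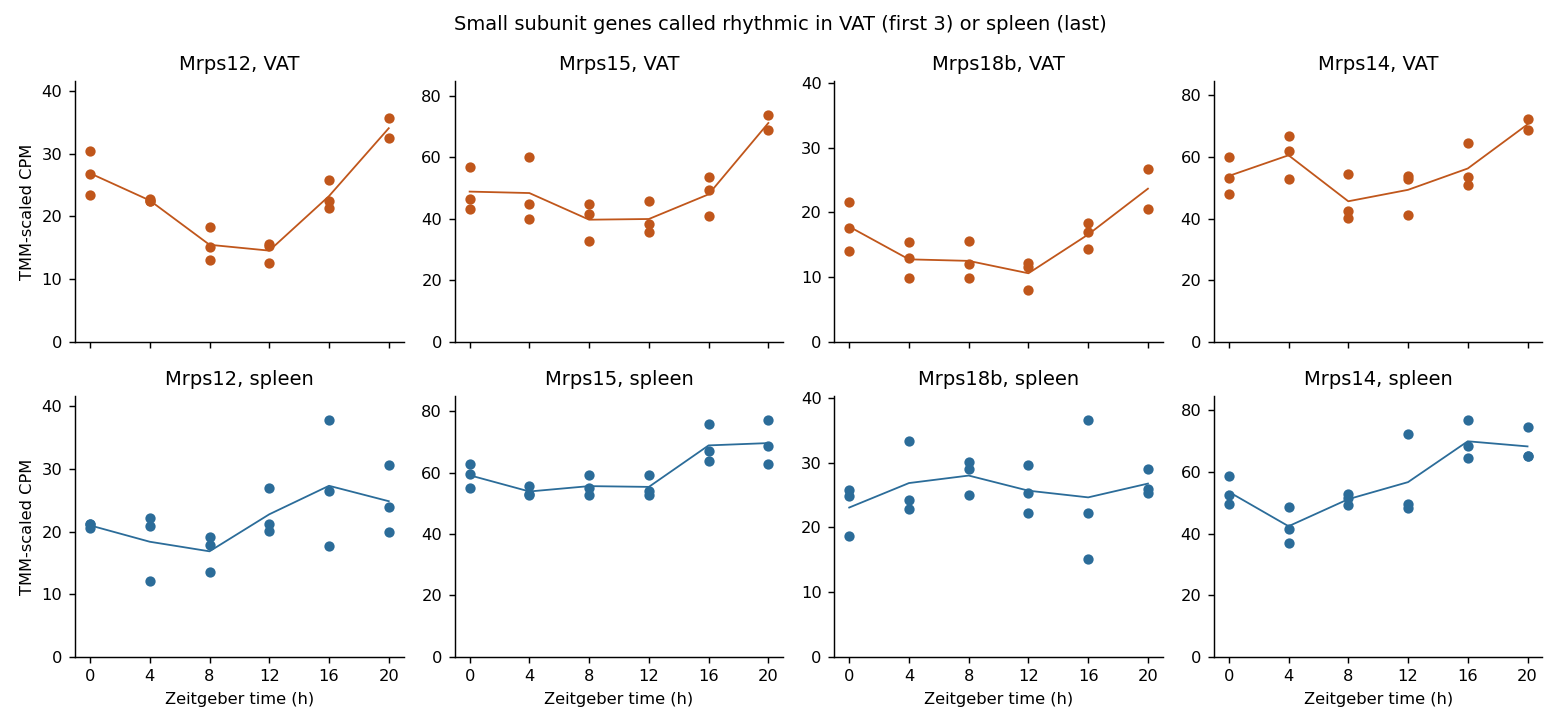
TMM-scaled CPM (vertical axis) of Mrps12, Mrps15, Mrps18b and Mrps14 in each library (points) by Zeitgeber time (horizontal axis), VAT in the upper row and spleen in the lower, with lines through the group means. Mrps12 in VAT lies between 12.6 and 18.3 CPM at ZT8 and ZT12 and at 32.5 and 35.7 CPM at ZT20.

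Although few genes were called, their fitted peaks lay close together. In VAT Tregs, 72 of the 75 genes (96.0%) peaked between ZT16 and ZT24, beside 40.4% of all genes, with a median peak at ZT20.4. In spleen Tregs, 60 of the 75 (80.0%) did, beside 36.6% of all genes, with a median peak at ZT17.8. The genes share their libraries, so these peaks are not independent of each other. The summed level of the 75 genes followed the same course: it was 3258.0 ± 227.4 CPM at ZT20 in VAT (SD, n = 2) and 2152.5 ± 96.6 CPM at ZT8 (SD, n = 3), and in spleen 3194.9 ± 250.3 CPM at ZT20 and 2538.8 ± 74.7 CPM at ZT8 (SD, n = 3 each).

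A measure of transcript length moved with this course. For each library, the deviations of its log2 CPM from the tissue mean were fitted on log2 transcript length over all genes, so that a negative slope marks a library in which short transcripts read relatively high. The 75 genes have short transcripts, with a median of 855.0 bp, against 1422.5 bp for all genes with a length. Both VAT libraries of ZT20 had slopes of -0.102 and -0.0877, the lowest of their tissue, and there 67 and 70 of the 75 genes lay above their VAT mean. The 3 spleen libraries of ZT20 had slopes between -0.0513 and -0.0404, with 52 to 69 genes above the spleen mean. The lowest slope in spleen was that of ZT16 B, at -0.0756, with 65 genes above the spleen mean.

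**Figure D4:**
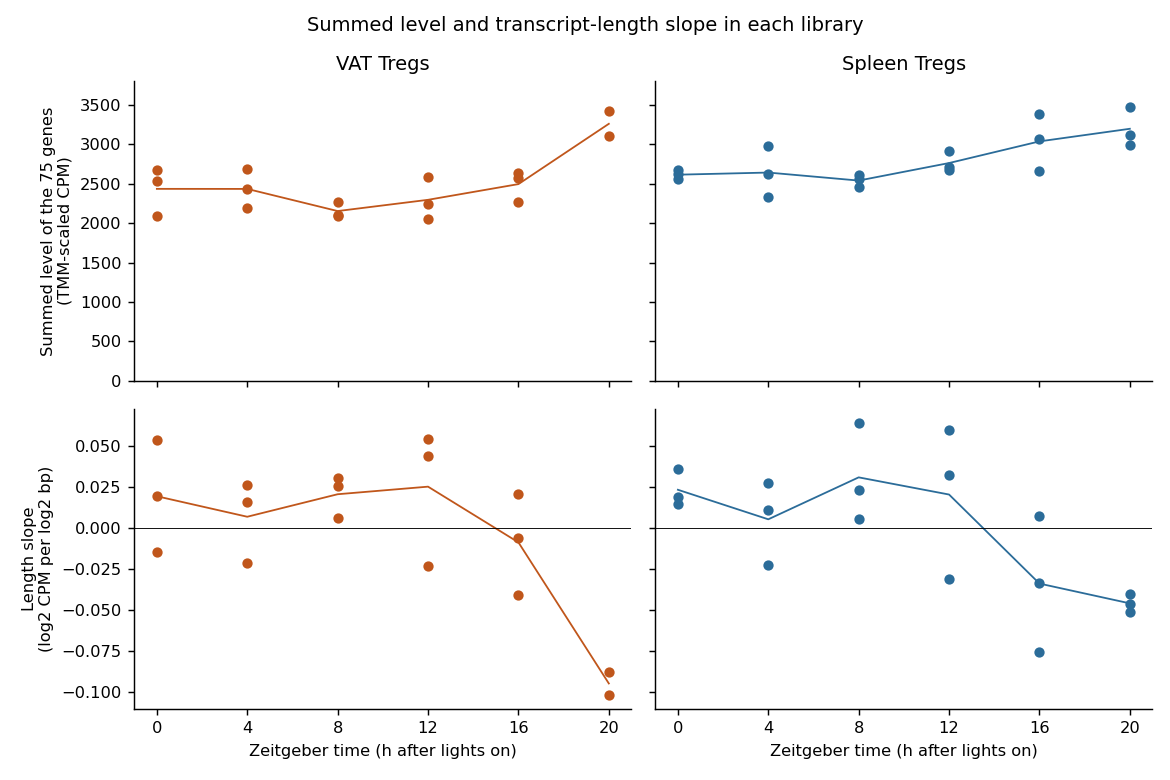
Summed TMM-scaled CPM of the 75 genes (upper row) and transcript-length slope (lower row, log2 CPM per log2 bp) in each library (points) by Zeitgeber time, VAT on the left and spleen on the right, with lines through the group means. The 2 VAT libraries of ZT20 combine the highest sums of that tissue, with a mean of 3258.0 CPM, with its lowest slopes, -0.102 and -0.0877.

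With the slope of each library as a covariate, none of the 75 genes was called rhythmic in VAT or in spleen by edgeR, beside 0.157% of all genes in VAT and 0.377% in spleen. At an unadjusted p under 0.05 were 5 of the 75 in VAT, beside 9.66% of all genes, and 2 in spleen, beside 9.72%. Fitted peaks between ZT16 and ZT24 were then found for 50 of 75 genes in VAT and 38 of 75 in spleen, and the median amplitudes were 0.25 in VAT and 0.23 in spleen. The amplitude of Mrps12 in VAT was 1.01 in that fit (edgeR adjusted p = 0.0890), close to its 1.15 without the slope, while that of Mrps15 was 0.43 (adjusted p = 0.398), that of Mrps18b 0.68 (0.407) and that of Mrps14 in spleen 0.47 (0.258). Without the ZT20 libraries none was called in either tissue either, beside 0.117% of all genes in VAT and 1.95% in spleen. At an unadjusted edgeR p under 0.05 were then 3 in VAT, beside 8.53% of all genes, and 5 in spleen, beside 13.3%. In VAT the slope and ZT20 go together in both libraries, and a course of these genes with time cannot be told apart from one of the slope there. In spleen the mean slope was -0.0339 at ZT16 and -0.046 at ZT20, and above 0 at all earlier times. A course with time was thus not separated from one of the slope in spleen either.

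**Figure D5:**
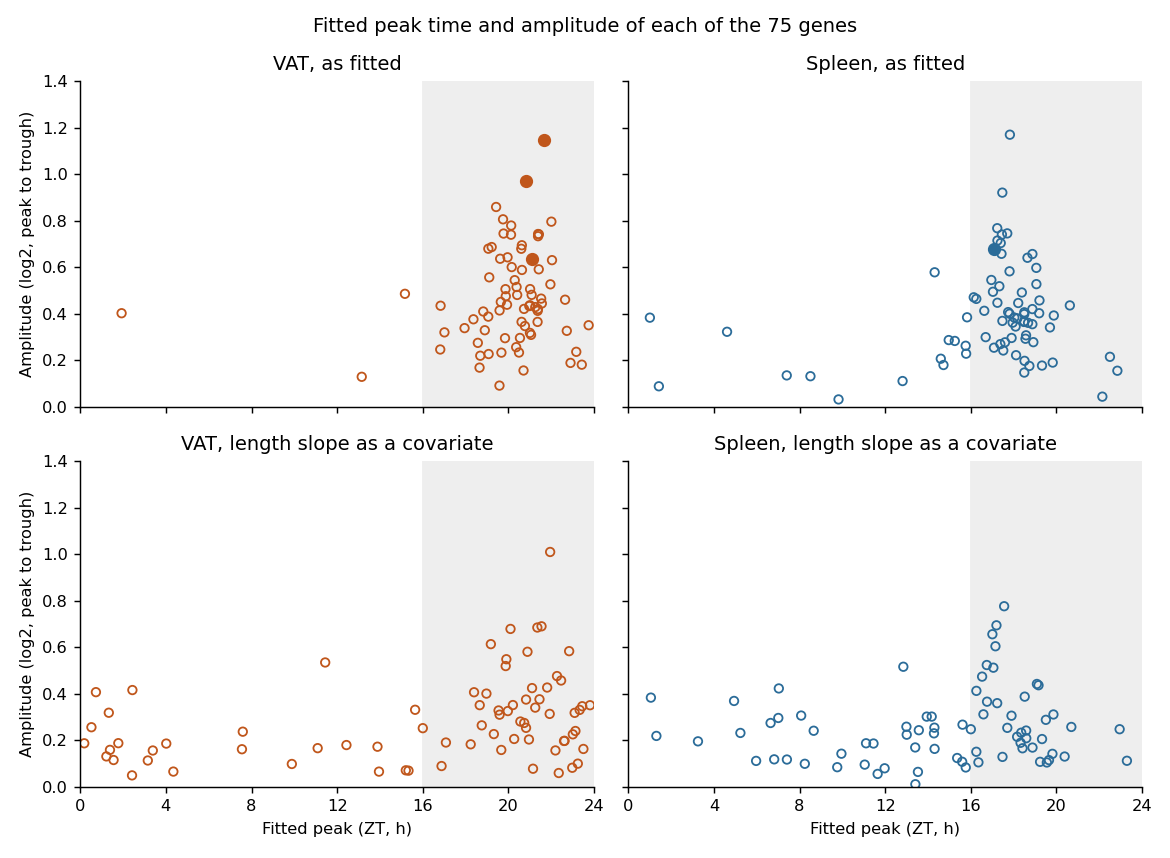
Fitted peak time (horizontal axis, ZT in hours) and peak-to-trough amplitude (vertical axis, log2) of each of the 75 genes, VAT on the left and spleen on the right, as fitted (upper row) and with the length slope as a covariate (lower row). Filled points were called rhythmic and the grey field spans ZT16 to ZT24. That field holds 72 VAT and 60 spleen genes as fitted, and 50 VAT and 38 spleen genes with the slope.

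The slope also differed between the tissues. Taken against the mean over all libraries, it was 0.0203 ± 0.0449 in VAT (SD, n = 17) and -0.0192 ± 0.0398 in spleen (SD, n = 18). With it as a covariate, 10 of the 75 genes were called higher in VAT, beside 26.9% of all genes, and 24 lower, beside 31.6%, so the share that was lower was about that of all genes. Their median log2 fold change was -0.085, beside -0.12 for all genes. Of these 34 calls, 32 were among the 42 made without the slope. Each of Mrpl52, Mrpl58, Mrps34, Mrps18b and Mrpl30 stayed lower, with Mrpl52 between -1.66 and -1.17 over all alternatives other than leaving out a library.

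Genes that work with the mitochondrial ribosome were set beside these 75. The counts of the lists below stand beside 28.6% of all genes tested called higher and 33.5% called lower. No list was tested as a set, and their counts with the length slope as a covariate are not given. The 5 ribosomal proteins that carry other symbols were all below 0 and 4 were called lower. These were Dap3, a GTP-binding protein of the small subunit (-0.16 ± 0.06, edgeR adjusted p = 0.0348), Ptcd3 (-0.51 ± 0.07, 1.49e-07), Chchd1 (-0.68 ± 0.12, 1.22e-05) and Gadd45gip1 (-0.55 ± 0.11, 5.89e-05), while Aurkaip1 was not called (-0.044 ± 0.07, 0.609). Of 25 genes for assembly of the ribosome and modification of its rRNA, 2 were higher and 12 lower (median -0.23). The lowest were Ybey, an endoribonuclease, with a mean of 3.03 CPM over VAT and 7.1 CPM over spleen libraries (-1.24 ± 0.22, edgeR adjusted p = 1e-05), and Ngrn, with 28.6 CPM over VAT and 65 CPM over spleen libraries (-1.17 ± 0.08, edgeR adjusted p = 3.22e-15). Ngrn was also called rhythmic in VAT (edgeR adjusted p = 0.0196).

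Of 15 mitochondrial translation factors tested, 2 were higher and 7 lower (median -0.37), with Lrpprc, which stabilises mitochondrial mRNAs, at -0.82 ± 0.16 and Gfm2, a factor that recycles ribosomes, at -0.65 ± 0.09 (edgeR adjusted p = 8.05e-05 and 3.94e-08). Of 17 mitochondrial aminoacyl-tRNA synthetases, 2 were higher and 8 lower (median -0.12). Mars2 averaged 26.8 CPM over VAT and 57 CPM over spleen libraries (-1.06 ± 0.10, edgeR adjusted p = 1.73e-11) and Ears2 24.8 CPM over VAT and 46 CPM over spleen libraries (-0.88 ± 0.13, edgeR adjusted p = 5.23e-07). Sars2, the neighbour of Mrps12, was higher in VAT (0.43 ± 0.16, edgeR adjusted p = 0.0227).

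Mitochondrial transcription and genome maintenance showed the widest span. Of 10 such genes, 1 was higher and 6 were lower (median -0.70). Polg2, the accessory subunit of the mitochondrial DNA polymerase, averaged 209.6 CPM over VAT and 37.8 CPM over spleen libraries (2.45 ± 0.08, edgeR adjusted p = 4.61e-26), whereas Twnk averaged 11.3 CPM over VAT and 30.9 CPM over spleen libraries. Of 13 mRNAs of the mitochondrial genome, 8 could be tested, of which 1 was higher and 6 were lower (median -0.46), and these 13 together made up 0.882 to 1.88% of the counts in VAT and 1.30 to 2.20% in spleen.

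Among 9 regulators of genes for mitochondrial proteins, Yy1 (0.33 ± 0.08, edgeR adjusted p = 0.000327) and Gabpb1, a subunit of GABP (0.18 ± 0.08, 0.0476), were called higher, and Pprc1, a coactivator of NRF1 (-0.40 ± 0.10, 0.00102), was called lower. Nrf1 averaged 135.3 CPM over VAT and 138.3 CPM over spleen libraries and was not called (-0.03 ± 0.06, edgeR adjusted p = 0.652), nor were Gabpa (0.20), Esrra (0.23), Ppargc1a (-1.09, 0.834 CPM over VAT and 1.28 CPM over spleen libraries), Ppargc1b (-0.25) and Myc (0.04). Myc was called rhythmic in spleen (edgeR adjusted p = 0.0464) but not in VAT (0.0527). Of 83 genes for proteins of the cytosolic ribosome, 76 were lower and none was higher in VAT (median -0.63). In spleen 48 were called rhythmic, beside 1.99% of all genes, and in VAT none, beside 1.84%. Their transcripts are shorter still than those of the 75 genes, with a median of 632 bp against 855 bp. Counts with the length slope as a covariate are not given for them. In VAT, 47 of the 83 had an unadjusted edgeR p under 0.05, beside 17.4% of all genes. None was called for a difference in rhythm between the tissues, so a rhythm limited to spleen was not shown. For that difference 50 of the 83 had an unadjusted edgeR p under 0.05, beside 9.16% of all genes. Their median amplitude was 0.69 in spleen and 0.46 in VAT, with median peaks at ZT15.9 and ZT20.4. In the same fits, 34 of the 75 mitochondrial ribosomal protein genes were lower, and 1 was rhythmic in spleen and 3 in VAT.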

How the data were processed

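RNA of 35 libraries of 1000 sorted cells was primed with oligo-dT, amplified by PCR and sequenced as paired reads of 25 nt, per the labels' protocols. The authors deposited raw counts of reads per gene symbol. The submitters' processing notes name STAR 2.7.3a, featureCounts and the build mm10, and the sources used here do not give annotation, strand setting or the handling of reads with several matches. Reads carried no molecular identifiers, so PCR copies count as separate reads, and priming from the 3′ end with amplification can favour transcripts by length. In 34 pairs of libraries within a group, the chi-square statistic per gene was 4.1 to 20, so no 2 libraries agreed within sampling noise.

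Tests used edgeR 4.0.16 in R 4.3.3 (TMM factors, filterByExpr over the 12 groups of tissue and time, 15910 genes, robust quasi-likelihood fits, Benjamini-Hochberg adjustment over all genes, threshold 0.05). The tissue contrast weights the 6 times equally. Rhythm is a cosine and a sine of 24 h per tissue (2 degrees of freedom) in 1 model, and the difference in rhythm is that of these terms. Levels are TMM-scaled CPM. SE values come from the fold change or amplitude and its F statistic. The fits were tested on simulated counts. Lengths and positions are from GENCODE M21 (GRCm38).

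The members and all gene lists were chosen with earlier results of these data known. Named are the 8 genes called higher and the 8 called lower with the largest fold changes, the 3 highest and 3 lowest per kilobase, 5 genes by rhythm p in each tissue and for the difference, the genes next to the threshold, genes with a separate role, and 2 genes per related list. Exceptions are Mrps18c, Mrpl39, Mrpl43, Sars2 and the neighbouring genes, which were chosen after their values were seen, and the lists of cytosolic ribosomal proteins and mitochondrial mRNAs, for which counts are given. Alternatives were library totals, DESeq2 size factors, DESeq2 1.42.0, 2 other count filters, replicate letters as a block, each library or ZT20 left out, each tissue alone, any difference among times, and the length slope as a covariate, which for the tissue contrast was chosen after seeing the data.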

Additional observations from a re-analysis of the deposited data

How the results depend on the processing

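Against 42 called, library totals gave 65 genes differing between VAT and spleen (1 higher, 64 lower), and turned Mrps25 to -0.0228, Mrpl1 to -0.0827, Mrpl13 to -0.114 and Mrps23 to -0.126. Of the other alternatives for the tissue contrast, which called 34 to 43 genes, only leaving out ZT20 moved a split by over 1.5 times (5 higher). Leaving out 1 library gave 6 to 9 higher and 30 to 35 lower. Rhythmic genes in VAT, 3 as reported, numbered 1 with library totals, DESeq2 size factors in edgeR, no filter or VAT alone, 8 with DESeq2, 5 for any difference among times, and 0 without ZT20 or with the length slope. Leaving out 1 library gave 1 to 9: 9 without ZT0 C, 5 without ZT4 B or ZT16 B, and 1 without ZT4 C, ZT8 B, ZT12 B, ZT12 D, ZT16 C, ZT20 A or ZT20 C. In spleen, 1 as reported, the number was 8 with DESeq2, 3 with a minimum mean of 5 CPM, and 0 with no filter, any difference among times, no ZT20 or the length slope. Leaving out 1 library gave 0 to 4: 0 without ZT4 C or ZT16 B and 4 without ZT16 A. Beyond what the construction of these settings shows, the cause was not tested. No alternative called a difference in rhythm for any of the 75 genes.

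The letters that label replicates are shared across groups. Over 17 pairs of VAT and spleen libraries of the same time and letter, the deviations from the group means correlated at -0.112 to 0.0576. No shared deviation of such pairs was thus seen. The labels do not say what the letters mark, and these values cannot show whether paired libraries come from the same mice. With letter as a replicate block, 40 genes differed between the tissues (37 with time and letter together), 1 was rhythmic in VAT and 0 in spleen.

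Depth limits the genes of lowest level: the lowest library counts of a gene were 6 in VAT and 7 in spleen. The 2 VAT libraries of ZT20 carry the peak of the fitted courses there.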
